A study of Mus musculus with 13 samples.

Results

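The genes described here are 41 genes of cholesterol and fatty acid metabolism, chosen by name from the 56748 genes of the table, with no measured value in the rule. Earlier results of these data were known when the list was made. They are grouped into 5 roles: control of the sterol-regulated transcription factors (5 genes), mevalonate steps (6 genes), squalene and sterol steps (11 genes), sterol traffic, storage and the liver X receptors (6 genes), and fatty acid synthesis and oxidation (13 genes). Of the 41 genes, 39 passed the filter on low counts and were tested, and Scd1 and Fads2 did not.

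Cells make cholesterol from acetyl-CoA through mevalonate, squalene and lanosterol. When sterol in the endoplasmic reticulum is low, SCAP carries the SREBP transcription factors to the Golgi, where they are cut and released to activate genes of sterol and fatty acid synthesis. When sterol is high, INSIG proteins hold the complex back, and oxysterols activate the liver X receptors (LXR), which induce the cholesterol exporters ABCA1 and ABCG1 as well as Srebf1. Activated and dividing T cells are known to draw on both sterol and fatty acid synthesis to build membrane.

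RNA was sequenced from CD4+ T helper cells of the spleen. The sort kept cells with CD4 and a T cell receptor and left out those with Thy1.1, which in these mice reports Foxp3. All mice received 50 µg of NK1.1-depleting antibody on days −2 and 5 and Vk12653 myeloma cells on day 0, so all data come from NK1.1-depleted, myeloma-bearing hosts. The mice were then given 20 µg of 4-1BB agonist antibody or control IgG on days 10, 13 and 16, and the cells were taken on day 18. The 5 groups were GFP+ cells (n = 3) and GFP− cells (n = 3) of 4-1BB-treated Eomes-GFP mice, cells of Eomes-GFP mice under IgG (n = 2), and cells of Eomes-TKO mice after 4-1BB antibody (n = 2) or under IgG (n = 3). The last 3 groups were not sorted by GFP and are called unsplit. Both lines carried the Foxp3-Thy1.1 allele. The labels do not say how the Eomes-TKO line was made or in which cells Eomes is lost in it, and ages are not given.

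Libraries held 6080975 to 10881146 estimated counts. Levels are given in CPM, a count scaled to a fixed library size with TMM factors. Eomes itself measured 570, 706 and 685 CPM in the GFP+ libraries, 1.83 to 3.54 CPM in the GFP− libraries, 14.0 and 16.8 CPM under IgG in Eomes-GFP mice, and 1.36 to 8.03 CPM in the 5 Eomes-TKO libraries. The helper cell markers Cd3e and Cd4 were at 668 CPM or more in every library, and Foxp3 stayed between 0.393 and 2.65 CPM. All 16 cell division genes of a fixed list were called higher in GFP+ than in GFP− cells, with a summed level of 1422 to 1932 CPM against 552 to 681 CPM. All 8 tested myeloid markers had a positive fold change in GFP+ against GFP− cells, and 3 were called higher (Itgam, Itgax and Cd68). The summed level of the 10 listed was 60.7 to 89.5 CPM against 18.4 to 37.6 CPM. Against unsplit Eomes-GFP cells under IgG, 6 of the 8 were called higher in GFP+ cells. Cd14, at 0.244 CPM or less in every library, did not pass the filter. The immunoglobulin gene Igkc stood at 76.1, 82 and 79.6 CPM in GFP+ libraries and at 0.0903 to 0.488 CPM in GFP− libraries. It was the 1 of 3 tested plasma cell markers called higher in GFP+ cells. Tnfrsf17, of the same list, was at 0 in all 13 libraries and was not tested. Of the other marker lists, 4 of 5 CD4 T cell genes were called higher in GFP+ cells, Foxp3 and 1 gene each of the CD8 T cell, B cell and NK cell lists lower, and neither tested erythroid gene was called. The part of cell division or of other cells in the lipid gene differences was not tested. In these sorted bulk samples, fewer cells that express a gene and less RNA of it per cell cannot be told apart.

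After 4-1BB antibody, several genes of sterol synthesis and its control were lower in GFP+ than in GFP− cells of Eomes-GFP mice. A smaller group of sterol and fatty acid genes was higher in GFP+ cells. Transcripts of Srebf2, Insig1, Mvd, Idi1, Fdps, Sqle, Cyp51, Tm7sf2, the exporter Abca1, Acss2 and Fasn were lower in GFP+ cells. Transcripts of Insig2, Ebp, Stard4, Soat1, Acly, Scd2 and Elovl1 were higher. By edgeR's quasi-likelihood test with Benjamini-Hochberg adjustment over all genes at a threshold of 0.05, 11 of the 39 tested members (28.2%) were called lower and 7 (17.9%) higher, and 21 were not called. Over all 14059 tested genes, 37.1% were called, 16.5% lower and 20.7% higher. The share of members called higher thus lay near that of all genes, and the share called lower lay above it. Because the list was made with earlier results of these data known, this difference in shares was not tested and is description only. The median log2 fold change was −0.10 over the 39 members and 0.02 over all tested genes. All 3 GFP+ libraries stood below all 3 GFP− libraries for 10 members (23.7% of all genes did so) and above them for 9 members (27.6% of all genes). GFP+ and GFP− libraries with a shared library prefix were read as the same animal, which the labels do not state. In the 3 animals so paired, the 11 members called lower were lower in GFP+ cells in 3 of 3 animals, and the 7 called higher were higher in 3 of 3. The calls were made on these same libraries, so this agreement adds no independent support. Of the 21 members not called, 4 were higher and 5 lower in 3 of 3 animals. GFP+ replicate 2 had the highest level of the 3 GFP+ libraries for 29 of the 39 members. Without it, 4 members were called higher and 13 lower, while 7 were called lower without GFP+ replicate 3 and 6 without GFP− replicate 3. The counts over all genes also changed with the library left out. Upper-quartile scaling, which shifted the median of all genes by −0.14 on the log2 scale, gave 5 members higher and 13 lower. Over all genes the same scaling gave 2186 higher and 3095 lower, against 2905 and 2315 with TMM. The plot of fold changes by role shows every tested member.

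**Figure D1:**
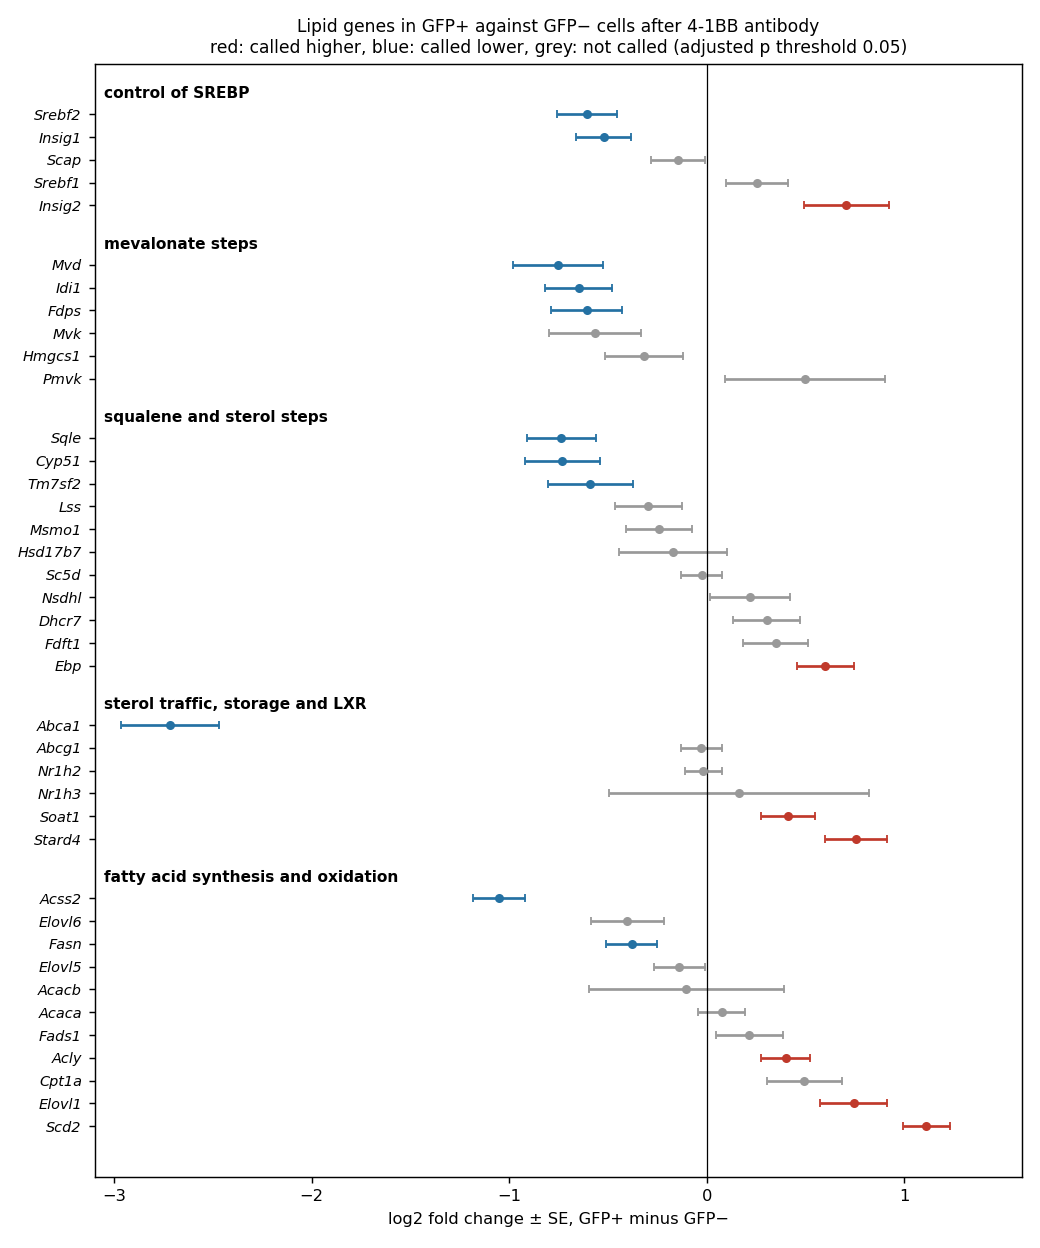
Log2 fold change ± SE (edgeR) of each of the 39 tested members, GFP+ minus GFP− cells after 4-1BB antibody, sorted within 5 roles; red marks the 7 called higher, blue the 11 called lower and grey the 21 not called. Abca1 lies farthest to the left at −2.72 and Scd2 farthest to the right at 1.11.

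Among the genes that control SREBP activity, Srebf2, which encodes the SREBP form that mainly drives sterol synthesis, and Insig1, itself a known SREBP target, fell in GFP+ cells, while Insig2 rose. Srebf2 measured 166, 263 and 171 CPM in the GFP+ libraries and 262, 319 and 332 CPM in the GFP− libraries. In unsplit cells, Srebf2 stood at 337 and 344 CPM in Eomes-GFP mice under IgG, 344 and 339 CPM in Eomes-TKO mice after the 4-1BB antibody and 349.9, 391 and 347 CPM in Eomes-TKO mice under IgG. GFP+ replicate 2, at 263 CPM, reached the lowest GFP− library, so the groups overlapped, while the other 2 GFP+ libraries stood below every other library. The difference between GFP+ and GFP− was called (log2 fold change −0.61 ± 0.15 (SE), adjusted p = 0.00561). Insig1, whose protein retains SCAP in the endoplasmic reticulum, measured 29, 35.5 and 29.1 CPM in the GFP+ libraries and 37.9, 44.7 and 51.4 CPM in the GFP− libraries. In unsplit cells, Insig1 stood at 47.3 and 53.9 CPM in Eomes-GFP mice under IgG, 49.7 and 50.9 CPM in Eomes-TKO mice after the 4-1BB antibody and 44.4, 49.1 and 39.4 CPM in Eomes-TKO mice under IgG. The 3 GFP+ libraries were the 3 lowest of the 13 (log2 fold change −0.52 ± 0.14 (SE), adjusted p = 0.00821). Without GFP− replicate 3 the adjusted p of Insig1 was 0.0506. Insig2, its paralog, measured 15.8, 24.5 and 19.3 CPM in the GFP+ libraries and 10.1, 12.7 and 13.6 CPM in the GFP− libraries. In unsplit cells, Insig2 stood at 18.4 and 12 CPM in Eomes-GFP mice under IgG, 15.6 and 12.7 CPM in Eomes-TKO mice after the 4-1BB antibody and 14.3, 12 and 15.5 CPM in Eomes-TKO mice under IgG. Its GFP+ libraries all stood above the GFP− libraries (log2 fold change 0.71 ± 0.21 (SE), adjusted p = 0.0180) but overlapped those under IgG. The call of Insig2 was lost without GFP+ replicate 2 (adjusted p = 0.110) and without GFP− replicate 1 (adjusted p = 0.0791). Srebf1, which encodes the form tied more to fatty acid synthesis, measured 75.3, 121 and 87.8 CPM in the GFP+ libraries and 65.7, 80.2 and 91.7 CPM in the GFP− libraries. In unsplit cells, Srebf1 stood at 105 and 95 CPM in Eomes-GFP mice under IgG, 98.1 and 86.1 CPM in Eomes-TKO mice after the 4-1BB antibody and 85.9, 97.4 and 86.2 CPM in Eomes-TKO mice under IgG. The GFP+ and GFP− values overlapped and the difference was not called (log2 fold change 0.26 ± 0.16 (SE), adjusted p = 0.226). Scap, the escort protein, measured 74, 97.9 and 76.1 CPM in the GFP+ libraries and 86.4, 93.8 and 93.8 CPM in the GFP− libraries. In unsplit cells, Scap stood at 109.8 and 85.3 CPM in Eomes-GFP mice under IgG, 85.1 and 94 CPM in Eomes-TKO mice after the 4-1BB antibody and 85.4, 111 and 88.5 CPM in Eomes-TKO mice under IgG. All groups overlapped, and Scap was not called (log2 fold change −0.14 ± 0.14 (SE), adjusted p = 0.443).

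The 6 mevalonate genes encode some, not all, of the steps that turn acetyl-CoA units into farnesyl diphosphate, the precursor of sterols and of protein prenyl groups. Of these, 3 fell in GFP+ cells (Mvd, Idi1 and Fdps), none rose, and 3 were not called (Hmgcs1, Mvk and Pmvk). Idi1, the isopentenyl diphosphate isomerase, measured 16.5, 21.6 and 16.2 CPM in the GFP+ libraries and 24.5, 28.1 and 32.2 CPM in the GFP− libraries. In unsplit cells, Idi1 stood at 32.7 and 33.4 CPM in Eomes-GFP mice under IgG, 27.8 and 39.2 CPM in Eomes-TKO mice after the 4-1BB antibody and 31.5, 39 and 31.3 CPM in Eomes-TKO mice under IgG. Its GFP+ libraries were the 3 lowest of 13, and its mean was 1.57 times as high in GFP− as in GFP+ cells (log2 fold change −0.65 ± 0.17 (SE), adjusted p = 0.00798). Fdps, farnesyl diphosphate synthase, measured 11.9, 11.1 and 9.35 CPM in the GFP+ libraries and 14, 17.1 and 18.1 CPM in the GFP− libraries. In unsplit cells, Fdps stood at 16.8 and 19.8 CPM in Eomes-GFP mice under IgG, 15.3 and 19.5 CPM in Eomes-TKO mice after the 4-1BB antibody and 16.6, 20.6 and 17 CPM in Eomes-TKO mice under IgG. No GFP+ library reached any other library (log2 fold change −0.61 ± 0.18 (SE), adjusted p = 0.0153). Mvd, mevalonate diphosphate decarboxylase, has low counts and measured 6.38, 6.42 and 5.69 CPM in the GFP+ libraries and 10.1, 8.16 and 12.7 CPM in the GFP− libraries. In unsplit cells, Mvd stood at 8.65 and 10.4 CPM in Eomes-GFP mice under IgG, 7.03 and 8.34 CPM in Eomes-TKO mice after the 4-1BB antibody and 9.07, 11.9 and 8.10 CPM in Eomes-TKO mice under IgG. It too separated GFP+ from all other libraries (log2 fold change −0.75 ± 0.23 (SE), adjusted p = 0.0175). The calls of Mvd and Fdps were lost without GFP+ replicate 3 (adjusted p = 0.0516 and 0.0536) and without GFP− replicate 3 (0.0985 and 0.0659). Mvk, mevalonate kinase, measured 3.88, 7.46 and 5.91 CPM in the GFP+ libraries and 8.54, 7.92 and 9.12 CPM in the GFP− libraries. In unsplit cells, Mvk stood at 10.0 and 9.10 CPM in Eomes-GFP mice under IgG, 9.37 and 9.91 CPM in Eomes-TKO mice after the 4-1BB antibody and 8.86, 9.96 and 7.70 CPM in Eomes-TKO mice under IgG. These ranges did not overlap, but the difference from GFP− cells missed the threshold (log2 fold change −0.57 ± 0.23 (SE), adjusted p = 0.0709). It was called without GFP+ replicate 2 (log2 fold change −0.82, adjusted p = 0.0205) and with upper-quartile scaling (−0.71, 0.0224). Hmgcs1, HMG-CoA synthase, measured 36.7, 61.3 and 35.9 CPM in the GFP+ libraries and 46.5, 61.7 and 58.5 CPM in the GFP− libraries. In unsplit cells, Hmgcs1 stood at 60.4 and 70.7 CPM in Eomes-GFP mice under IgG, 59.3 and 75 CPM in Eomes-TKO mice after the 4-1BB antibody and 55, 71.2 and 57.6 CPM in Eomes-TKO mice under IgG. GFP+ replicate 2 lay among the GFP− libraries and the difference was not called (log2 fold change −0.32 ± 0.20 (SE), adjusted p = 0.228). Without that library Hmgcs1 was called lower (log2 fold change −0.65, adjusted p = 0.00766). Pmvk, phosphomevalonate kinase, ranged from 1.46 to 7.90 CPM over the 13 libraries and was not called (log2 fold change 0.50 ± 0.40 (SE), adjusted p = 0.365).

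The 11 genes from squalene to cholesterol split. Sqle, Cyp51 and Tm7sf2 fell in GFP+ cells, Ebp rose, and 7 were not called. Sqle, squalene epoxidase, a rate-limiting step of the pathway, measured 13, 13.6 and 13.3 CPM in the GFP+ libraries and 16.7, 23.4 and 26.3 CPM in the GFP− libraries. In unsplit cells, Sqle stood at 24.7 and 27.7 CPM in Eomes-GFP mice under IgG, 27.2 and 24.6 CPM in Eomes-TKO mice after the 4-1BB antibody and 23.7, 30.6 and 22.8 CPM in Eomes-TKO mice under IgG. The GFP+ libraries lay close together and below all others (log2 fold change −0.74 ± 0.18 (SE), adjusted p = 0.00449). Cyp51, lanosterol demethylase, measured 20.2, 28.1 and 19.4 CPM in the GFP+ libraries and 26.3, 42.3 and 43.6 CPM in the GFP− libraries. In unsplit cells, Cyp51 stood at 41.6 and 47.6 CPM in Eomes-GFP mice under IgG, 45.4 and 47.2 CPM in Eomes-TKO mice after the 4-1BB antibody and 41.9, 51.1 and 42.1 CPM in Eomes-TKO mice under IgG. GFP+ replicate 2 at 28.1 CPM overlapped GFP− replicate 1 at 26.3 CPM, and the difference was called (log2 fold change −0.73 ± 0.19 (SE), adjusted p = 0.00734). Tm7sf2, a sterol reductase, measured 5.68, 6.42 and 4.84 CPM in the GFP+ libraries and 9.64, 7.19 and 8.58 CPM in the GFP− libraries. In unsplit cells, Tm7sf2 stood at 11.6 and 12 CPM in Eomes-GFP mice under IgG, 12.8 and 8.76 CPM in Eomes-TKO mice after the 4-1BB antibody and 12.6, 15.3 and 15.8 CPM in Eomes-TKO mice under IgG. Its call was close to the threshold (log2 fold change −0.59 ± 0.22 (SE), adjusted p = 0.0451). A model with the animal as a block did not call it (log2 fold change −0.63, adjusted p = 0.0510), nor did 9 of the other 20 alternatives. Ebp, the sterol isomerase later in the pathway, moved the other way and measured 34.9, 48.4 and 37.8 CPM in the GFP+ libraries and 25.5, 27 and 27.3 CPM in the GFP− libraries. In unsplit cells, Ebp stood at 23.9 and 24.4 CPM in Eomes-GFP mice under IgG, 22 and 28.4 CPM in Eomes-TKO mice after the 4-1BB antibody and 20.8, 22.5 and 19.5 CPM in Eomes-TKO mice under IgG. The 3 GFP+ libraries were the 3 highest of 13 (log2 fold change 0.60 ± 0.14 (SE), adjusted p = 0.00424). Msmo1, a methylsterol oxidase, measured 14.7, 21.9 and 18.5 CPM in the GFP+ libraries and 17.2, 24.2 and 23.6 CPM in the GFP− libraries. In unsplit cells, Msmo1 stood at 29.6 and 32.5 CPM in Eomes-GFP mice under IgG, 33.3 and 31.3 CPM in Eomes-TKO mice after the 4-1BB antibody and 25.6, 30.1 and 28.4 CPM in Eomes-TKO mice under IgG. GFP+ and GFP− values overlapped (log2 fold change −0.24 ± 0.17 (SE), adjusted p = 0.284). Lss, lanosterol synthase, measured 17.9, 20.9 and 17.1 CPM in the GFP+ libraries and 19.6, 22.2 and 26.6 CPM in the GFP− libraries. In unsplit cells, Lss stood at 24.5 and 32.8 CPM in Eomes-GFP mice under IgG, 32.2 and 24.1 CPM in Eomes-TKO mice after the 4-1BB antibody and 27.9, 23.9 and 25.8 CPM in Eomes-TKO mice under IgG. The difference was not called (log2 fold change −0.29 ± 0.17 (SE), adjusted p = 0.193). Sc5d, a sterol desaturase, measured 38.1, 40.8 and 43.7 CPM in the GFP+ libraries and 39.6, 41.8 and 43.4 CPM in the GFP− libraries. In unsplit cells, Sc5d stood at 50.2 and 54.3 CPM in Eomes-GFP mice under IgG, 51.8 and 51.5 CPM in Eomes-TKO mice after the 4-1BB antibody and 52, 49.4 and 44.8 CPM in Eomes-TKO mice under IgG. Its log2 fold change between GFP+ and GFP− cells was −0.03 ± 0.10 (SE). The other 4 genes, Fdft1 (squalene synthase), Nsdhl and Hsd17b7 (removal of sterol methyl groups) and Dhcr7 (the last reductase), had log2 fold changes of −0.17 to 0.35, none called. Over the 13 libraries Fdft1 ranged from 17.9 to 28.5 CPM, Nsdhl from 12.2 to 22.3 CPM, Hsd17b7 from 5.48 to 12.8 CPM and Dhcr7 from 29.7 to 53.8 CPM. Without GFP+ replicate 1, Dhcr7 was called higher (log2 fold change 0.47, adjusted p = 0.0189).

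**Figure D2:**
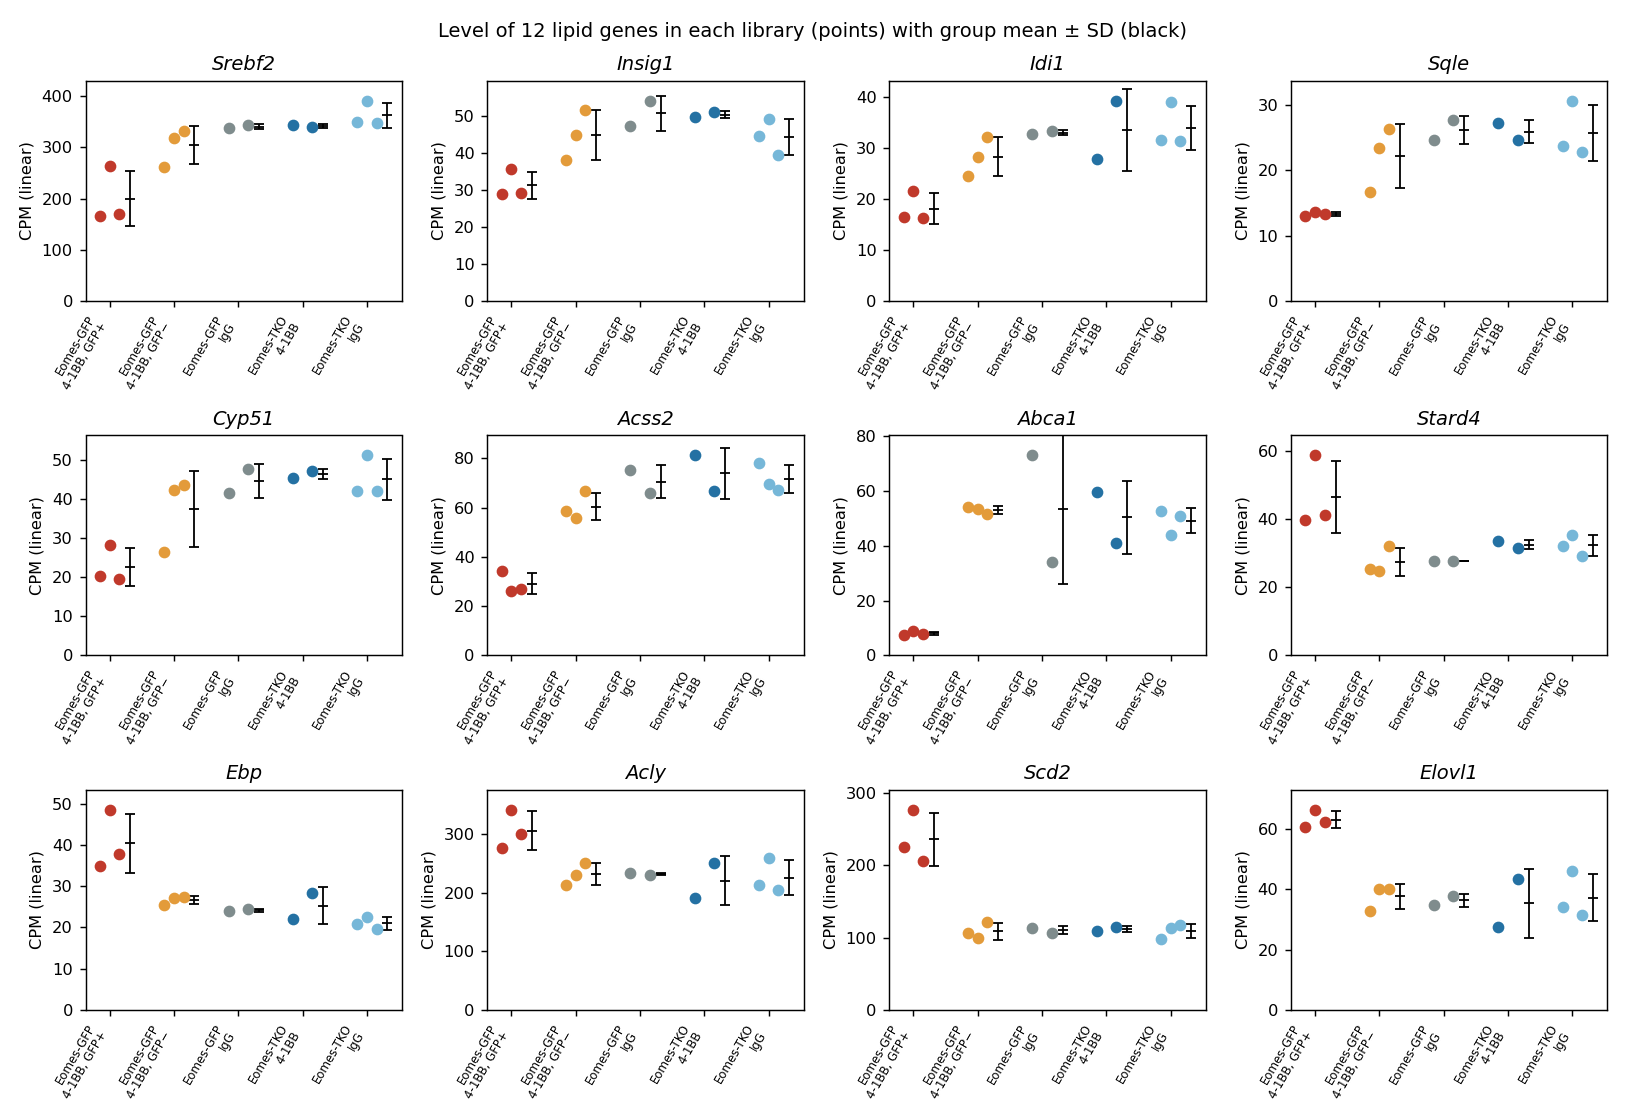
Level in CPM (linear axis) of 12 members in each of the 13 libraries, with each group's mean ± SD in black beside its points. GFP+ libraries (red) lie lowest for Insig1, Idi1, Sqle, Acss2 and Abca1 and highest for Stard4, Ebp, Acly, Scd2 and Elovl1; 1 GFP+ library of Srebf2 and of Cyp51 reaches the GFP− range.

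Promoter sequences were read for the members that move together in the sterol branch, because SREBP factors are known to work with NF-Y at CCAAT boxes and with Sp1 at GC boxes. RefSeq promoters on the GRCm38.p6 build, from 250 bases before to 50 bases after the annotated start, were matched for 33 of the 41 members (43 promoters). Letters are given 5′ to 3′ on the gene's strand, and capitals mark CCAAT or its reverse complement, the SRE-like letters TCACNCCAC or their reverse complement, and, for LXR, a direct repeat described further on. Srebf2, Idi1 and Cyp51 were lower in GFP+ cells, Ebp was higher, and Hmgcs1 is shown as the member with an SRE-like match.
Srebf2 (chr15:82147019-82147318, plus strand): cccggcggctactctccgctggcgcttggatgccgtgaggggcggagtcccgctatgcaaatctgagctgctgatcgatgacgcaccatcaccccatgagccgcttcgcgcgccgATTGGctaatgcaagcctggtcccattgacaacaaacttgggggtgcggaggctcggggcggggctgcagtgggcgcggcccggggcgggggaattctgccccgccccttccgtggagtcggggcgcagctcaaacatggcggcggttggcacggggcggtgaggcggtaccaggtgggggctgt
Idi1 (chr13:8885356-8885655, plus strand): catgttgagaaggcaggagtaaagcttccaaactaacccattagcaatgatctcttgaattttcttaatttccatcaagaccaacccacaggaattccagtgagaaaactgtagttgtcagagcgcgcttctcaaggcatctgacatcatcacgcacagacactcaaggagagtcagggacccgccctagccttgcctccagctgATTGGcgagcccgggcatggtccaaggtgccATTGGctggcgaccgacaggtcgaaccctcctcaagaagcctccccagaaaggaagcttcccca
Cyp51 (chr5:4104648-4104947, minus strand): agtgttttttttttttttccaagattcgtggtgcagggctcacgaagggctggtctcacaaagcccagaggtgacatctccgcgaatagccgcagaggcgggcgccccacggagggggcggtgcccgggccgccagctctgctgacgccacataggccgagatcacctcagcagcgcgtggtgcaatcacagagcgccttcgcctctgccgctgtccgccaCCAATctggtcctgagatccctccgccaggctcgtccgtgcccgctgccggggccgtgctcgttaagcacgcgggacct
Ebp (chrX:8193463-8193762, minus strand): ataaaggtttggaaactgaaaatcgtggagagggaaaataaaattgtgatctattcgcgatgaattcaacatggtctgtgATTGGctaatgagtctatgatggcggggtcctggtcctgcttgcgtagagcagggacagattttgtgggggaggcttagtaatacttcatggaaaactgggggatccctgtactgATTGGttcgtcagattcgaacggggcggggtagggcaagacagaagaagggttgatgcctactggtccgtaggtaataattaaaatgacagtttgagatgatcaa
Hmgcs1 (chr13:119690101-119690400, plus strand): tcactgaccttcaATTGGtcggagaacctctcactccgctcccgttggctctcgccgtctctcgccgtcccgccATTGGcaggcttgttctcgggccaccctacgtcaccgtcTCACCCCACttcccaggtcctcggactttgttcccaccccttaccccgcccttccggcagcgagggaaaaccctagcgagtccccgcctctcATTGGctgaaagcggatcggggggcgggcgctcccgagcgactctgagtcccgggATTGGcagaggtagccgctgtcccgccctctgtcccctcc
CCAAT was present on either strand in 8 of the 9 promoters of members lower in GFP+ cells (88.9%), in 5 of the 8 promoters of members higher (62.5%), in 14 of 25 of tested members not called (56.0%) and in 37.4% of all 32851 mouse promoters in the table. GGGCGG, the GC box, was present in 8 of 9, 7 of 8 and 14 of 25 of these promoters and in 35.7% of all. The 8 promoters of members higher belong to 5 genes, as some genes have several starts. By gene, CCAAT was in 8 of 9 members lower, 5 of 5 higher and 13 of 18 not called, and in 11096 of all 27025 genes. By gene, GGGCGG was in 8 of 9, 5 of 5 and 11 of 18, and in 10324 of all. Both motifs were thus common in members that fell and in members that rose. Sqle and Fdps, called lower, and Stard4 and Scd2, called higher, had no promoter in the set used. TCACNCCAC was found in 1 member promoter, that of Hmgcs1, at 137 bases before the start, and in 1.24% of all promoters. CACGTG, the E-box, was found in 2 of 9, 0 of 8 and 6 of 25 promoters in the order above, against 7.15% of all promoters. A match is a stretch of letters and no measured binding, and a promoter without one says only that these letters are not in this window.

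Sterol traffic, storage and LXR genes held the largest difference of the set. Abca1, which exports cholesterol to lipoproteins and is a known LXR target, measured 7.48, 8.77 and 7.84 CPM in the GFP+ libraries and 54, 53.4 and 51.4 CPM in the GFP− libraries. In unsplit cells, Abca1 stood at 72.9 and 34.1 CPM in Eomes-GFP mice under IgG, 59.7 and 41 CPM in Eomes-TKO mice after the 4-1BB antibody and 52.6, 44 and 50.9 CPM in Eomes-TKO mice under IgG. The 3 GFP+ libraries stood at 7.48 to 8.77 CPM and the other 10 libraries at 34.1 to 72.9 CPM. The mean was 8.03 ± 0.665 CPM (SD, n = 3) in GFP+ and 52.9 ± 1.37 CPM (SD, n = 3) in GFP− cells, 6.58 times as high in GFP− as in GFP+ cells (log2 fold change −2.72 ± 0.25 (SE), adjusted p = 1.69e-06). The call held in all 21 alternatives, with log2 fold changes of −2.86 to −2.70. The related exporter Abcg1, also a known LXR target, measured 192, 222 and 201 CPM in GFP+ and 211, 192 and 223 CPM in GFP− libraries and 167 to 216 CPM in unsplit cells, and the groups overlapped (log2 fold change −0.03 ± 0.10 (SE), adjusted p = 0.870). The LXR gene Nr1h2 stood between 77.1 and 97.9 CPM in all 13 libraries (log2 fold change −0.02 ± 0.09 (SE), adjusted p = 0.914). Nr1h3, the second LXR gene, reached at most 2.19 CPM (log2 fold change 0.16 ± 0.66 (SE), adjusted p = 0.874). Stard4, a cytosolic sterol carrier, measured 39.8, 58.8 and 41.3 CPM in the GFP+ libraries and 25.5, 24.9 and 32.1 CPM in the GFP− libraries. In unsplit cells, Stard4 stood at 27.9 and 27.8 CPM in Eomes-GFP mice under IgG, 33.6 and 31.6 CPM in Eomes-TKO mice after the 4-1BB antibody and 32.3, 35.5 and 29.2 CPM in Eomes-TKO mice under IgG. Its GFP+ libraries were the 3 highest of 13 (log2 fold change 0.76 ± 0.16 (SE), adjusted p = 0.00164). Soat1, which esterifies cholesterol for storage, measured 70.7, 101 and 83 CPM in the GFP+ libraries and 60.7, 63.5 and 67.2 CPM in the GFP− libraries. In unsplit cells, Soat1 stood at 86.7 and 68.4 CPM in Eomes-GFP mice under IgG, 66.5 and 72.4 CPM in Eomes-TKO mice after the 4-1BB antibody and 65.8, 66.7 and 78.5 CPM in Eomes-TKO mice under IgG. It was called higher than in GFP− cells (log2 fold change 0.41 ± 0.13 (SE), adjusted p = 0.0260), although 3 unsplit libraries lay within the GFP+ range. The call of Soat1 was lost in 6 of 21 alternatives, among them upper-quartile scaling (adjusted p = 0.104) and leaving out GFP+ replicate 2 (adjusted p = 0.175).

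The LXR direct repeat, GGTNA and GGTCA parted by 5 bases of any kind and searched on both strands, was added to the search after the Abca1 promoter had been read. It was present in 3 members, Abca1 (67 bases before the start), Srebf1 (182 bases) and Fasn (225 bases). That is 3 of 43 member promoters (6.98%), against 0.207% of all promoters. By gene it was in 3 of 33 members and in 61 of all 27025 genes. Since the repeat was added after that reading, the Abca1 match is no independent one to set against these shares. The same holds for Fasn and Srebf1, whose letters are the same as those of Abca1 or a variant of them. Abcg1 had no promoter in the set used and could not be searched. Whether the repeat bears on the levels was not tested. Abca1 and Fasn, which both fell in GFP+ cells, are shown because their 15 matching letters were the same.
Abca1 (chr4:53159846-53160145, minus strand): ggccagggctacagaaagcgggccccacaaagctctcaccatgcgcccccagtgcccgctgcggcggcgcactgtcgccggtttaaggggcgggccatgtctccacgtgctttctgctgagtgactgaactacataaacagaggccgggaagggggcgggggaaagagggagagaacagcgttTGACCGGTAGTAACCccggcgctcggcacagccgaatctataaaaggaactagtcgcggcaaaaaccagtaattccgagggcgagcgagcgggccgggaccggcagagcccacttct
Fasn (chr11:120824498-120824797, minus strand): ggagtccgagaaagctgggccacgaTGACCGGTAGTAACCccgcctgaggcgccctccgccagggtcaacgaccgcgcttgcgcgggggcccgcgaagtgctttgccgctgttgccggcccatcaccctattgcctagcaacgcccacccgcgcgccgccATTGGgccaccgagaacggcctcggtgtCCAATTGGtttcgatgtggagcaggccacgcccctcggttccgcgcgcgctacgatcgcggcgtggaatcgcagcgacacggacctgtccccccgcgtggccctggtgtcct
In Fasn the run of 8 capitals is made of CCAAT and its reverse complement overlapping. Srebf1 holds a variant of the same 15 letters in 1 of its promoters and was not called.

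In fatty acid metabolism, Scd2, Elovl1 and Acly rose in GFP+ cells, Acss2 and Fasn fell, and 6 of the 11 tested genes were not called. Scd2, a stearoyl-CoA desaturase that makes monounsaturated fatty acids, measured 225, 277 and 207 CPM in the GFP+ libraries and 106, 98.9 and 122 CPM in the GFP− libraries. In unsplit cells, Scd2 stood at 114 and 106 CPM in Eomes-GFP mice under IgG, 109 and 115 CPM in Eomes-TKO mice after the 4-1BB antibody and 98.6, 113 and 117 CPM in Eomes-TKO mice under IgG. All 3 GFP+ libraries lay at 207 CPM or more and no other library above 122 CPM, and the mean of 236 ± 36.3 CPM (SD, n = 3) in GFP+ cells was 2.16 times the 109 ± 11.9 CPM (SD, n = 3) in GFP− cells (log2 fold change 1.11 ± 0.12 (SE), adjusted p = 4.37e-06). Its paralog Scd1 had at most 3 counts in any library and was not tested, and where reads fit both paralogs the split rests on the authors' counting. Elovl1, which elongates very long saturated chains, measured 60.7, 66.2 and 62.2 CPM in the GFP+ libraries and 32.7, 40.0 and 40.1 CPM in the GFP− libraries. In unsplit cells, Elovl1 stood at 34.8 and 37.9 CPM in Eomes-GFP mice under IgG, 27.3 and 43.5 CPM in Eomes-TKO mice after the 4-1BB antibody and 34.1, 46.1 and 31.3 CPM in Eomes-TKO mice under IgG. Its GFP+ libraries were the 3 highest of 13 (log2 fold change 0.75 ± 0.17 (SE), adjusted p = 0.00329). The genes for both routes to cytosolic acetyl-CoA moved in opposite directions. Acly, which makes it from citrate, measured 276, 341 and 299 CPM in the GFP+ libraries and 213, 229.9 and 251 CPM in the GFP− libraries. In unsplit cells, Acly stood at 233 and 231 CPM in Eomes-GFP mice under IgG, 191 and 249.7 CPM in Eomes-TKO mice after the 4-1BB antibody and 213, 260.0 and 205 CPM in Eomes-TKO mice under IgG. It was called higher (log2 fold change 0.40 ± 0.12 (SE), adjusted p = 0.0197), but not under upper-quartile scaling (adjusted p = 0.0820), without GFP+ replicate 2 (0.117) or in 3 other alternatives. Acss2, which makes it from acetate, measured 34.2, 26.2 and 27.2 CPM in the GFP+ libraries and 58.7, 55.9 and 66.7 CPM in the GFP− libraries. In unsplit cells, Acss2 stood at 75.3 and 66 CPM in Eomes-GFP mice under IgG, 81.2 and 66.6 CPM in Eomes-TKO mice after the 4-1BB antibody and 78.2, 69.8 and 67.2 CPM in Eomes-TKO mice under IgG. No GFP+ library exceeded 34.2 CPM and no other library fell under 55.9 CPM, and the mean was 2.07 times as high in GFP− as in GFP+ cells (log2 fold change −1.05 ± 0.13 (SE), adjusted p = 2.19e-05).

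Fasn, fatty acid synthase, measured 189, 261 and 201 CPM in the GFP+ libraries and 238, 289.7 and 319 CPM in the GFP− libraries. In unsplit cells, Fasn stood at 325 and 305 CPM in Eomes-GFP mice under IgG, 246 and 264 CPM in Eomes-TKO mice after the 4-1BB antibody and 266, 299 and 296 CPM in Eomes-TKO mice under IgG. GFP+ replicate 2 at 261 CPM lay above GFP− replicate 1 at 238 CPM. The difference was called (log2 fold change −0.38 ± 0.13 (SE), adjusted p = 0.0310), and 4 of the alternatives that leave out 1 library lost it, with adjusted p of up to 0.143 without GFP− replicate 3. Elovl6, which elongates palmitate, measured 16.6, 15.1 and 17.9 CPM in the GFP+ libraries and 23.1, 22.2 and 20.5 CPM in the GFP− libraries. In unsplit cells, Elovl6 stood at 27.5 and 23.9 CPM in Eomes-GFP mice under IgG, 24.4 and 23.6 CPM in Eomes-TKO mice after the 4-1BB antibody and 26.7, 17.6 and 31.9 CPM in Eomes-TKO mice under IgG. Its GFP+ and GFP− libraries did not overlap and the difference was not called (log2 fold change −0.40 ± 0.19 (SE), adjusted p = 0.106), but with the animal as a block it was (log2 fold change −0.45, adjusted p = 0.0373), as in 4 of the other 20 alternatives. Cpt1a, which admits long-chain fatty acids to mitochondria for oxidation, measured 155, 131 and 113 CPM in the GFP+ libraries and 114, 89.1 and 80.1 CPM in the GFP− libraries. In unsplit cells, Cpt1a stood at 79.5 and 51.7 CPM in Eomes-GFP mice under IgG, 97.4 and 123 CPM in Eomes-TKO mice after the 4-1BB antibody and 112, 83 and 112 CPM in Eomes-TKO mice under IgG. The difference was not called (log2 fold change 0.49 ± 0.19 (SE), adjusted p = 0.0574), and it was with the animal as a block (log2 fold change 0.45, adjusted p = 0.00219) with DESeq2 (0.49, 0.0354) and in 8 others of the 21 alternatives. The acetyl-CoA carboxylases Acaca and Acacb, the elongase Elovl5 and the desaturase Fads1 had log2 fold changes of −0.14 to 0.22, none called. Over the 13 libraries Acaca ranged from 56.8 to 76.4 CPM, Acacb from 1.46 to 6.05 CPM, Elovl5 from 146 to 227 CPM and Fads1 from 14.0 to 24.5 CPM. Fads2 had at most 7 counts in any library and was not tested.

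**Figure D3:**
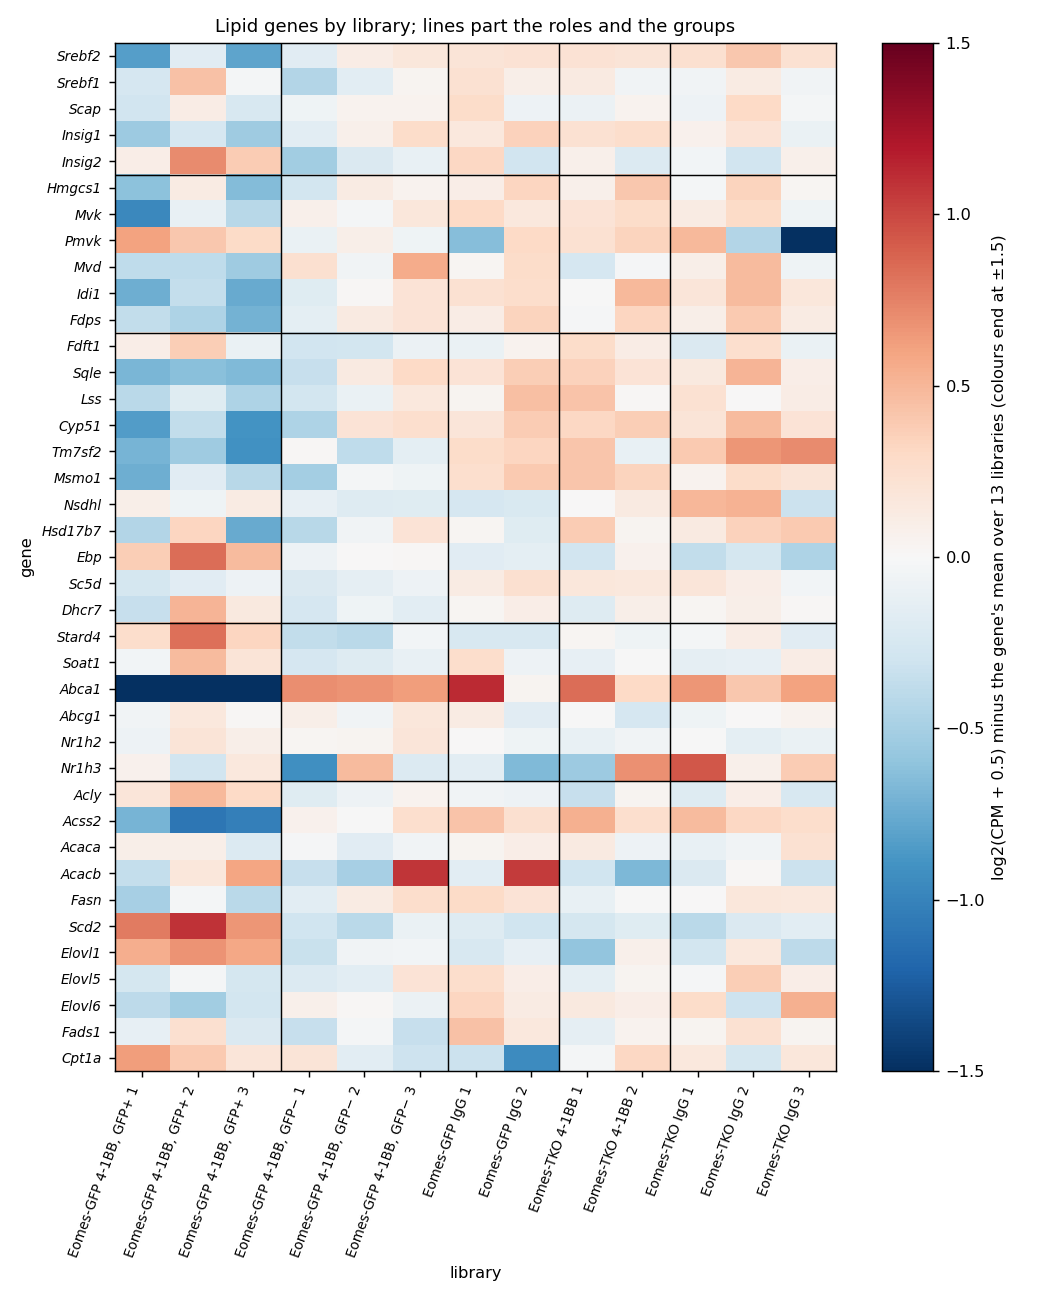
Log2(CPM + 0.5) of each of the 39 tested members minus that gene's mean over the 13 libraries; red is above and blue below the mean, colours end at ±1.5, and black lines part the roles (rows) and the groups (columns). The first 3 columns, the GFP+ libraries, lie below all other 10 for 9 members and above all other 10 for 5, and overlap them for the rest. Abca1 runs beyond the end of the scale, and GFP+ replicate 2 is lighter than the other 2 in many sterol genes.

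As a mean log2 CPM over all 41 genes, GFP+ libraries stood at 4.63 ± 0.12 (SD, n = 3) and GFP− libraries at 4.71 ± 0.13, a difference of −0.08 that is smaller than either SD. With upper-quartile scaling the difference was −0.21, and leaving out 1 library at a time moved it between −0.18 and −0.02, so that in some settings it exceeded these SDs. The mean for the mevalonate genes was 3.52 ± 0.18 in GFP+ and 3.92 ± 0.13 in GFP− cells, with all 3 GFP+ libraries below all 3 GFP− libraries. For the other roles the difference in mean log2 CPM was −0.22 (traffic, storage and LXR), −0.12 (squalene and sterol steps), −0.07 (control of SREBP) and 0.16 (fatty acid genes). In 4 of the 5 roles these means take in called members of both directions. Among the 22 genes of SREBP control and sterol synthesis, GFP+ replicate 2 was the highest GFP+ library for 18 and GFP− replicate 1 the lowest GFP− library for 18.

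**Figure D4:**
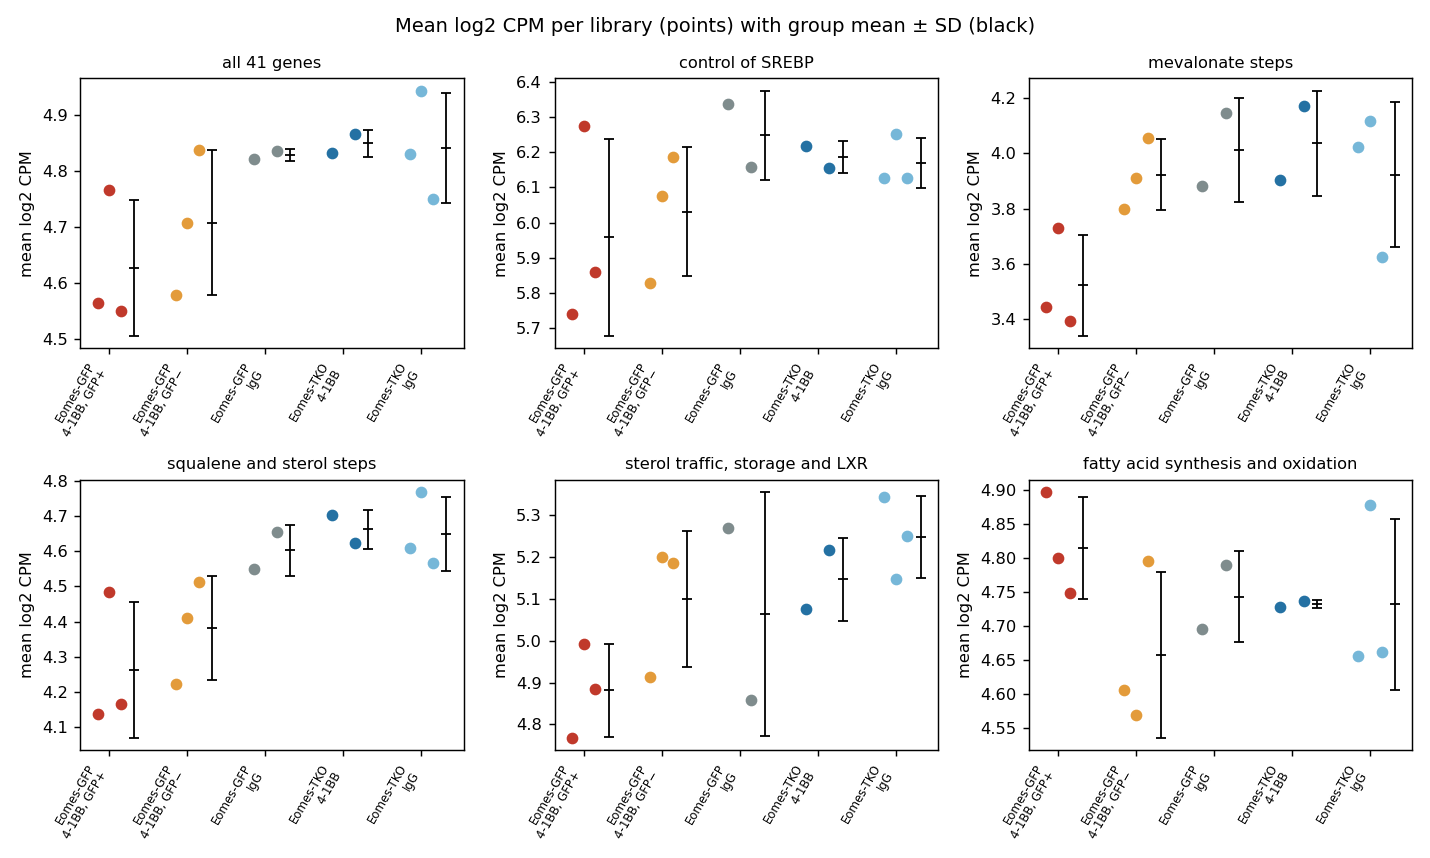
Mean log2 CPM per library over all 41 members and over each of the 5 roles, with each group's mean ± SD in black; the vertical axes do not start at 0. In the mevalonate panel the 3 GFP+ libraries lie between 3.39 and 3.73 and the 3 GFP− libraries between 3.80 and 4.06, while in the panel of all 41 genes these groups overlap.

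Genes of the same pathways outside the 41 were read from 4 lists of 69 genes, of which 57 were tested. In GFP+ against GFP− cells, 20.7% of all tested genes were called higher and 16.5% lower. The counts of each list below are to be read beside these shares. Of 11 other genes of sterol synthesis and SREBP processing, 3 rose and none fell in GFP+ cells. Among them was Erg28, a scaffold of sterol demethylation enzymes (0.73 on the log2 scale). Of 13 tested other genes of sterol traffic and oxysterols, 1 rose, the sterol transfer protein Gramd1b (log2 fold change 1.09 ± 0.10 (SE), adjusted p = 1.42e-06), and 5 fell. The 5 were the lipoprotein receptor Scarb1 (−1.28), the paralog of Gramd1b, Gramd1a (−1.23), lysosomal acid lipase Lipa (−0.93), the LXR partner Rxra (−0.89) and the lysosomal sterol carrier Npc2 (−0.60). Gramd1a measured 229.6, 245 and 254 CPM in GFP+ and 564, 553 and 591 CPM in GFP− libraries, and Gramd1b 284, 336 and 276 against 152, 139 and 130.2 CPM.

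Of 15 tested other genes of fatty acid synthesis, activation and storage, 6 rose and 3 fell. Lpin1, the phosphatidate phosphatase of lipid synthesis, measured 464, 473 and 481 CPM in GFP+ and 67.9, 60.7 and 59 CPM in GFP− libraries (log2 fold change 2.92 ± 0.10 (SE), adjusted p = 7.1e-11). Its other 7 libraries stood between 52.9 and 63.8 CPM. The lipid droplet coat gene Plin2 (1.17), the carboxylase regulator Mid1ip1 (1.06), the triglyceride synthesis gene Dgat1 (0.57) and the acyl-CoA synthetase Acsl4 (0.56) followed. The 3 that fell were the acyl-CoA synthetases Acsl3 (−3.08) and Acsl1 (−0.82) and the elongation enzyme Hsd17b12 (−0.39), so the acyl-CoA synthetase genes split in direction. Of 18 tested other genes of fatty acid uptake and oxidation, 6 rose, led by Etfb (1.30), Fabp5 (1.10), Acadl (1.08), Cpt2 (0.74) and Decr1 (0.74). The 3 that fell were the coactivator Ppargc1b (−1.02) and the acyl-CoA dehydrogenases Acadm (−0.81) and Acadvl (−0.49). Over the 4 lists the median log2 fold changes were 0.24, −0.12, 0.14 and 0.22, against 0.02 for all tested genes.

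The genotype comparison under control IgG asked whether these genes differ between Eomes-TKO (n = 3) and Eomes-GFP (n = 2) cells without the agonist. None of the 39 members was called by edgeR (0.0142% of all genes were), 2 were under an unadjusted p of 0.05 (3.06% of all genes), and DESeq2 called none. The median log2 fold change was −0.03. The 2 were Cpt1a (log2 fold change 0.64 ± 0.22 (SE), unadjusted p = 0.0112) and Nsdhl (0.54 ± 0.23 (SE), unadjusted p = 0.0311), both with an adjusted p of 1. Cpt1a stood at 112, 83 and 112 CPM in Eomes-TKO and 79.5 and 51.7 CPM in Eomes-GFP libraries, which did not overlap. Abca1 differed between the 2 Eomes-GFP libraries themselves, at 72.9 and 34.1 CPM, and enclosed the Eomes-TKO values (−0.12 ± 0.24 on the log2 scale). The extremes of the 39 fold changes, Nr1h3 (1.39 ± 0.75) and Acacb (−0.86 ± 0.55), were genes under 7 CPM.

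In Eomes-TKO cells, the 4-1BB antibody (n = 2) against IgG (n = 3) likewise gave no called member by edgeR (0.0427% of all genes), none under an unadjusted p of 0.05 (3.60% of all genes), and none by DESeq2. The median log2 fold change was 0.00, and the members ran from −0.44 (Tm7sf2, unadjusted p = 0.0741) to 0.59 (Pmvk). For the genes that differed most between GFP+ and GFP− cells, the fold changes here were 0.03 ± 0.24 (SE) for Abca1, 0.03 ± 0.13 for Scd2, 0.04 ± 0.14 for Acss2 and 0.01 ± 0.19 for Sqle. These are unsplit cells and not sorted fractions, and no group held unsplit cells of 4-1BB-treated Eomes-GFP mice. Whether the differences between GFP+ and GFP− cells depend on Eomes was not tested. All 16 cell division genes had a positive fold change in this comparison, 1 of them called (Nusap1), with a summed level of 289 and 612 CPM after the agonist and 183 to 228 CPM under IgG. No gene of the 4 other lipid lists was called in either Eomes-TKO comparison with an IgG group.

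Treated Eomes-TKO cells were then set against each sorted fraction of treated Eomes-GFP mice. Against GFP− cells, no member was called (0.0427% of all genes; 3 under an unadjusted p of 0.05, against 6.97% of all genes), and DESeq2 called none. The lowest unadjusted p was that of Msmo1 (0.57 ± 0.18 on the log2 scale, unadjusted p = 0.00678, adjusted p = 0.491). Against GFP+ cells, 14 members were higher in Eomes-TKO cells (15.7% of all genes) and 5 lower (18.8%), with 34.6% of all genes called in either direction. The 14 were Abca1 (log2 fold change 2.64 ± 0.26 (SE), adjusted p = 4.74e-06), Acss2 (log2 fold change 1.34 ± 0.14 (SE), adjusted p = 5.71e-06), Cyp51 (1.04), Sqle (0.96), Tm7sf2 (0.93), Idi1 (0.90), Msmo1 (0.81), Srebf2 (0.77), Mvk (0.74), Fdps (0.70), Insig1 (0.69), Lss (0.59), Hmgcs1 (0.59) and Sc5d (0.34). Of these, 12 encode or control steps of sterol synthesis, as do 22 of the 39 tested members. The 5 lower were Scd2 (log2 fold change −1.08 ± 0.14 (SE), adjusted p = 2.56e-05), Elovl1 (−0.82), Ebp (−0.67), Stard4 (−0.52) and Acly (−0.47). Without Eomes-TKO 4-1BB replicate 1 these counts were 9 and 1, without GFP+ replicate 2 they were 16 and 3, with only the 2 groups in the model 9 and 2, and with upper-quartile scaling 16 and 3. Over all genes, upper-quartile scaling gave 3126 higher and 2019 lower, against 2214 and 2645 with TMM. Of 20 alternatives, Hmgcs1 kept its call in 11, Mvk and Stard4 in 13 each, Sc5d in 14 and Lss and Acly in 16 each. This comparison sets unsplit cells against a sorted fraction, and it shares the GFP+ libraries with the comparison of GFP+ and GFP− cells.

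Against unsplit Eomes-GFP cells under IgG, GFP+ cells had 15 members lower (15.4% of all genes) and 6 higher (18.8%), with 34.2% of all genes called either way. The same GFP+ libraries enter again. Both sorted fractions differ from these IgG cells in antibody and in sorting by GFP at once, so the parts of antibody and of sorting cannot be told apart. Genes lower here and not called against GFP− cells were Mvk (−0.73 ± 0.26, adjusted p = 0.0389), Lss (−0.63 ± 0.19, 0.0169), Msmo1 (−0.76 ± 0.18, 0.00468), Sc5d (−0.35 ± 0.12, 0.0280) and Elovl6 (−0.63 ± 0.20, 0.0266), as log2 fold change ± SE. Of 20 alternatives, Mvk kept its call in 9 (adjusted p up to 0.159), Sc5d in 15, Elovl6 in 17, Lss in 18 and Msmo1 in 19, and Acly, called higher, in 13. Mvd, lower against GFP− cells, was not called here (−0.63 ± 0.25, 0.0668). Cpt1a was higher in GFP+ cells than under IgG (log2 fold change 1.02 ± 0.22 (SE), adjusted p = 0.00283). Without IgG replicate 1 the number called higher was 3, and without IgG replicate 2 the number called lower was 9. Upper-quartile scaling gave 5 members higher and 20 lower. Over all genes it gave 2130 higher and 2950 lower, against 2642 and 2167 with TMM. GFP− cells against the same IgG libraries gave no called member (0.761% of all genes; 4 members under an unadjusted p of 0.05, against 8.76%), and none by DESeq2. The 4 were Fads1 (−0.55 ± 0.19 on the log2 scale), Msmo1 (−0.52 ± 0.18), Sc5d (−0.33 ± 0.12) and Cpt1a (0.53 ± 0.22).

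Set against all other libraries at once, the 3 GFP+ libraries lay below each of the other 10 for 9 of 39 members (Insig1, Mvk, Mvd, Idi1, Fdps, Sqle, Tm7sf2, Abca1 and Acss2), as did 15.1% of all tested genes. They lay above each of the other 10 for 5 members (Ebp, Stard4, Acly, Scd2 and Elovl1), against 18.9% of all genes.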

How the data were processed

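Total RNA of 13 sorted spleen CD4+ T helper cell libraries was sequenced after ribosomal RNA depletion, from 11 ng of RNA per the labels' protocols. The values are estimated counts for each gene, in 1 table that the authors deposited. The submitters' processing notes name the GRCm39 build and, among the tools, Salmon 1.5.2, STAR 2.7.10a, cutadapt 3.4 and Trim Galore 0.6.7. Whether the counting used strand is not given in the sources used here, so reads of overlapping or antisense genes and of close paralogs may be shared between genes. Between 6.25% and 7.33% of values per library were not whole and were rounded. Of 47 library columns, 13 carried the name of 1 labelled sample each, and the other 34 were left aside.

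All 13 libraries entered 1 edgeR 4.0.16 model (R 4.3.3) with 5 groups and 8 residual degrees of freedom, TMM scaling, filterByExpr (14059 genes kept) and the robust quasi-likelihood test, two-sided, with Benjamini-Hochberg adjustment at 0.05 over all genes. Every adjusted p in the text is from this model unless another fit is named. CPM is scaled by effective library size, and 3 counts equal 0.271 to 0.468 CPM. Mean log2 CPM uses a prior count of 2. The SE is the size of the log2 fold change over the square root of F. CPM is not scaled by gene length, so levels are not compared between genes.

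Groups and replicate numbers came from the labels. GFP+ and GFP− libraries of the same number share a library prefix, read as the same animal (10 animals in all). Their deviations from the group means correlated at 0.32, 0.11 and 0.06, and those of other pairs at −0.25 to 0.15. A model with the animal as a block was therefore run, and its value is given where it changes a call. Nothing else says that replicates are separate animals, so p-values rest on the spread among the libraries at hand, which may be technical. No pair of replicates differed by counting noise alone (chi-square per degree of freedom of 7.74 to 29.2).

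The 41 genes and all lists were chosen with earlier results of these data known. A member is given in every library where it was called in at least 1 comparison or belongs to the SREBP control genes, and the rest by range. Other genes came from 4 pathway lists (up to 5 called per direction, largest fold change first) and 9 marker lists. Alternatives were upper-quartile and RLE scaling, DESeq2 1.42.0, no low count filter, a CPM of at least 1 in at least 2 libraries, only the groups compared, a block for the animal or for the replicate number, a prior count of 0.5 and leaving out each library. Promoters of 8 members were not in the table used. The mean level of the list was given no test. A few genes of the pathway and marker lists are counted but not reported here by name.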

Additional observations from a re-analysis of the deposited data

How the results depend on the processing

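For GFP+ against GFP− cells, Srebf2, Idi1, Sqle, Cyp51, Ebp, Stard4, Abca1, Acss2, Scd2 and Elovl1 kept their direction and call in all 21 alternatives. Insig1 lost its call in 1, Insig2, Mvd and Fdps in 2 each, Fasn in 4, Acly in 5, Soat1 in 6 and Tm7sf2 in 10. No called member changed direction in any comparison or alternative, and of 1178 repeats of a called member's test 108 lost the call. Leaving out 1 library at a time gave 4 (without GFP+ replicate 2) to 8 members higher and 6 (without GFP− replicate 3) to 13 lower, with 7 lower without GFP+ replicate 3. For treated Eomes-TKO against GFP+ cells it gave 9 to 16 higher and 1 to 5 lower, and for GFP+ cells against IgG 3 to 6 higher and 9 to 16 lower. In the other 4 comparisons every such count was 0. The difference in mean log2 CPM of the members ran from −0.18 to −0.02 for GFP+ against GFP−, from −0.04 to 0.07 for the genotypes under IgG and from −0.04 to 0.06 for the agonist in Eomes-TKO cells.

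With upper-quartile scaling the median of all genes in GFP+ against GFP− shifted by −0.14 on the log2 scale, the share of calls that were higher went from 55.7% to 41.4%, and 5 members were called higher and 13 lower. The difference in mean log2 CPM of the members was then −0.21 (−0.08 with TMM). Under the same scaling, treated Eomes-TKO against GFP+ cells gave 16 members higher and 3 lower (median shift 0.16), and GFP+ cells against IgG 5 higher and 20 lower (median shift −0.14). With only the groups compared in the model, treated Eomes-TKO against GFP+ cells gave 9 higher and 2 lower, on fewer libraries. Without the low count filter, Cpt1a was called higher in Eomes-TKO than in Eomes-GFP cells under IgG (log2 fold change 0.65, adjusted p = 0.00320), the only member there (1), and higher in GFP− cells than under IgG (0.53, 0.0176), again 1 member; the cause was not tested.

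With the animal as a block, in GFP+ and GFP− libraries alone, 8 members were higher and 11 lower: Tm7sf2 was lost, Cpt1a and Elovl6 were gained, and no other call changed. With the replicate number as a block over all libraries, 8 were higher and 10 lower: Tm7sf2 was lost (adjusted p = 0.0581) and Cpt1a gained (0.0356). In comparisons between different animals, where the number pairs nothing, that block lost Mvk (adjusted p = 0.0508 for treated Eomes-TKO against GFP+ cells and 0.0511 for GFP+ cells against IgG) and gained Elovl6 in the former and Hmgcs1 and Elovl5 in the latter. Over all genes, the comparisons with few calls moved most: for the agonist in Eomes-TKO cells 6 genes were higher by edgeR, 61 by DESeq2 and 224 without the filter; for the genotypes under IgG, 2 were lower by edgeR, 3 by DESeq2 and 79 without the filter; for GFP− cells against IgG, 92 were higher by edgeR and 250 by DESeq2; and for treated Eomes-TKO against GFP− cells, 5 were lower by edgeR and 41 by DESeq2. Genes at a few CPM had the largest SE in GFP+ against GFP− cells (Nr1h3, Acacb and Pmvk, 0.40 to 0.66 on the log2 scale), though Mvk, Mvd and Tm7sf2 at similar levels had 0.22 to 0.23; the cause was not tested.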
